A study of Mus musculus with 4 samples.

Results

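The 33 genes described here serve protein folding and quality control in the endoplasmic reticulum (ER), together with the Ire1 and Atf6 arms of the unfolded protein response. They were chosen by name, with earlier results of these data known. All 33 were found among the 55573 genes of the deposited count table. RNA had been sequenced from SmoWT cells, a neurosphere culture of Sonic Hedgehog medulloblastoma that arose spontaneously in C57BL/6 mice of the genotype Ptch1+/-, Trp53-/-. All 4 libraries share that genotype. The 2 control libraries came from cells kept for 24 h with the solvent DMSO, and the other 2 from cells kept for 24 h with GDC0449 (vismodegib) at 0.1 µM, which blocks Smoothened, the signal transducer of the Hedgehog pathway. The comparison asks which transcripts differ after Smoothened inhibition. The labels give neither the number of tumours behind the cells nor whether the replicates were separate cultures. The p-values thus measure the spread between these libraries, which may be technical. The test takes that spread mostly from all genes together, not from each gene's own values.

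The libraries held 16329721 to 20790030 reads in genes. Gli1, a transcription factor gene that reports Hedgehog activity, was at 281 and 263 CPM (the count divided by the TMM-scaled library size, in the usual CPM unit) in DMSO and at 38.8 and 32.7 CPM in GDC0449. Of 11 markers of granule neuron progenitors and Sonic Hedgehog tumours, Zic1 was at 541 to 673 CPM, Barhl1 was below 1 CPM and Sfrp1 had 0 reads. All 9 that were tested passed the adjusted p, 4 lower and 5 higher with GDC0449. Atoh1, which defines granule neuron progenitors, was at 58.2 and 55.3 CPM in DMSO and 100.6 and 99.2 CPM in GDC0449, and Zic4 at 47.0 and 44.7 against 71.1 and 70.1 CPM. Mycn, a Hedgehog target, was at 1335 and 1283 against 885 and 913 CPM. Markers of microglia, fibroblasts and endothelium summed to at most 3.29, 2.61 and 1.37 CPM in any library. The 6 markers of B and plasma cells summed to 26.3 to 32.5 CPM, nearly all from Sdc1, while the plasma cell gene Jchain was at no more than 0.31 CPM. The 6 astrocyte markers summed to 147 and 164 CPM in DMSO and to 254 and 249 CPM in GDC0449. That increase lay in Slc1a2, at 72.6 and 83.5 against 178 and 176 CPM, and Aqp4 and Aldh1l1 had 0 reads. The part of such cells in the results below was not tested. In bulk RNA, fewer cells of a type and less RNA per cell cannot be told apart.

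Secreted and membrane proteins enter the ER through the Sec61 channel and fold there with the help of Hsp70-type and Hsp90-type chaperones, lectin chaperones and disulfide isomerases. Proteins that fail to fold are sent back to the cytosol for destruction by ER-associated degradation (ERAD). When unfolded proteins accumulate, Ire1 splices the Xbp1 mRNA and Atf6 is cut in the Golgi, and both factors then switch on chaperone and ERAD genes. A separate arm runs through the kinase Perk and the transcription factor Atf4, and it shares some targets with the others, among them Herpud1.

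The elements through which Atf6 and Xbp1 act are visible in the promoters of many of these genes, which is why the sequences are shown first. RefSeq promoter windows on GRCm38.p6, with 250 bases before and 50 after the annotated start, were matched for 28 of the 33 genes; the other 5 are Hyou1, Manf, Atf6, Derl1 and Sec61a1. The ER stress response element (ERSE) was searched on both strands as CCAAT, then 9 bases of any kind, then CCACG. It was found in 10 of the 28 genes (35.7%) and in 29 of 17492 protein-coding genes with a window (0.17%). The 33 genes were chosen as part of the response that this element serves, so the higher share is no independent finding. The letters CCAAT and CCACG inside it are short, and each alone occurs in 42.3% and 40.4% of genes. All 11 matches are given 5′ to 3′ in the orientation of the element, with the fixed letters in capitals.
Hspa5: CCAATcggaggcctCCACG
Hsp90b1 (upstream match): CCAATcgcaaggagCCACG
Hsp90b1 (downstream match): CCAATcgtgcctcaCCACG
Dnajc3: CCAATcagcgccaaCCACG
Pdia6: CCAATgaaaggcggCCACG
Ero1lb: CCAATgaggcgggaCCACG
Calr: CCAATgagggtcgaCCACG
Canx: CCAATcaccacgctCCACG
Creld2: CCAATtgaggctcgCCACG
Syvn1: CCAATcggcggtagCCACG
Derl3: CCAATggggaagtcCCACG
The 9 bases between the fixed blocks differed among all 11 matches, and all matches lay upstream of the start, between 212 bases before it in Hsp90b1 and 26 bases before it in Syvn1.

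Other elements were rarer among the 33 genes. The ERSE-II element, searched as ATTGG, then 1 base of any kind, then CCACG, matched in Dnajb11 and Herpud1, against 0.06% of genes. The core of the unfolded protein response element, TGACGTGG, matched in Sec24d, against 0.82% of genes. The composite element bound by Atf4 was searched as TGATGNAA and matched in Herpud1, against 4.13% of genes. Among 18 genes of the Atf4 arm 7 held that element (38.9%) and 0 held an ERSE. A match is a description of these letters and no proof of binding. The 250 bases before the start are shown for Hspa5 (chr2:34771840-34772089, plus strand), Pdia6 (chr12:17266339-17266588, plus strand) and Herpud1 (chr8:94386179-94386428, plus strand). They stand for a chaperone and an isomerase with an ERSE and for the gene that holds both the ERSE-II and the Atf4 element. Capitals mark the ERSE in Hspa5 and Pdia6. In Herpud1 they mark first the Atf4 element, which reads on the opposite strand, and then the ERSE-II.
Hspa5: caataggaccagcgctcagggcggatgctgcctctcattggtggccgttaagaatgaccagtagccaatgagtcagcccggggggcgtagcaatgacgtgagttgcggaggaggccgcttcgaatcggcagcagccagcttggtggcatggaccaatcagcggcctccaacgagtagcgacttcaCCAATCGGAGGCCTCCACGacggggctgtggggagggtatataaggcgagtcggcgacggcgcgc
Pdia6: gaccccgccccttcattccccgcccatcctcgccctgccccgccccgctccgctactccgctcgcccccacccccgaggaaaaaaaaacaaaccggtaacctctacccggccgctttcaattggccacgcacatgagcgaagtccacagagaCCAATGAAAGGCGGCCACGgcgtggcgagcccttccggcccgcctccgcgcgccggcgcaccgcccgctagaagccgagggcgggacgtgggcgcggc
Herpud1: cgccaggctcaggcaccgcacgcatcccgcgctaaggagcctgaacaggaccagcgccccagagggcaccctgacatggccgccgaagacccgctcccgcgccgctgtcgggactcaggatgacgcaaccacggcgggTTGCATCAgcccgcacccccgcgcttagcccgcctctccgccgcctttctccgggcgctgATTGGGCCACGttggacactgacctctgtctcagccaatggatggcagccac

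Most of the 33 genes differed little between the groups. With edgeR's quasi-likelihood test, 3 genes fell and 1 rose past an adjusted p of 0.05 and a 1.5-fold change: Ero1l, Herpud1 and Atf6 were lower with GDC0449 and Sdf2l1 was higher. Together they make 12.1% of the 33, beside 12.5% of the 15472 genes tested. By direction, 3.85% of all tested genes were called lower and 8.68% higher. The median log2 fold change of the 33 genes was 0.02, beside 0.01 for all tested genes. All 33 passed the filter on low counts. At the adjusted p alone, whatever the fold, 9 genes were lower and 9 higher, together 54.5% of the 33. The same rule took 36.1% of all genes tested, and 45.6% of those with a mean of at least 20 CPM, where 30 of the 33 lie and 17 of these 30 (56.7%) passed. All 4 called genes lie there too, where 3.07% of genes were called lower, 4.46% higher and 7.53% either way. In 27 of the 33 (81.8%) the DMSO and GDC0449 values did not overlap, against 65.8% of all genes tested and 72.1% of those at 20 CPM or more. Apart from the 4 called genes all differences were under 1.5-fold, with 18 log2 fold changes above 0 and 11 below, as the plot of changes by gene shows.

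**Figure D1:**
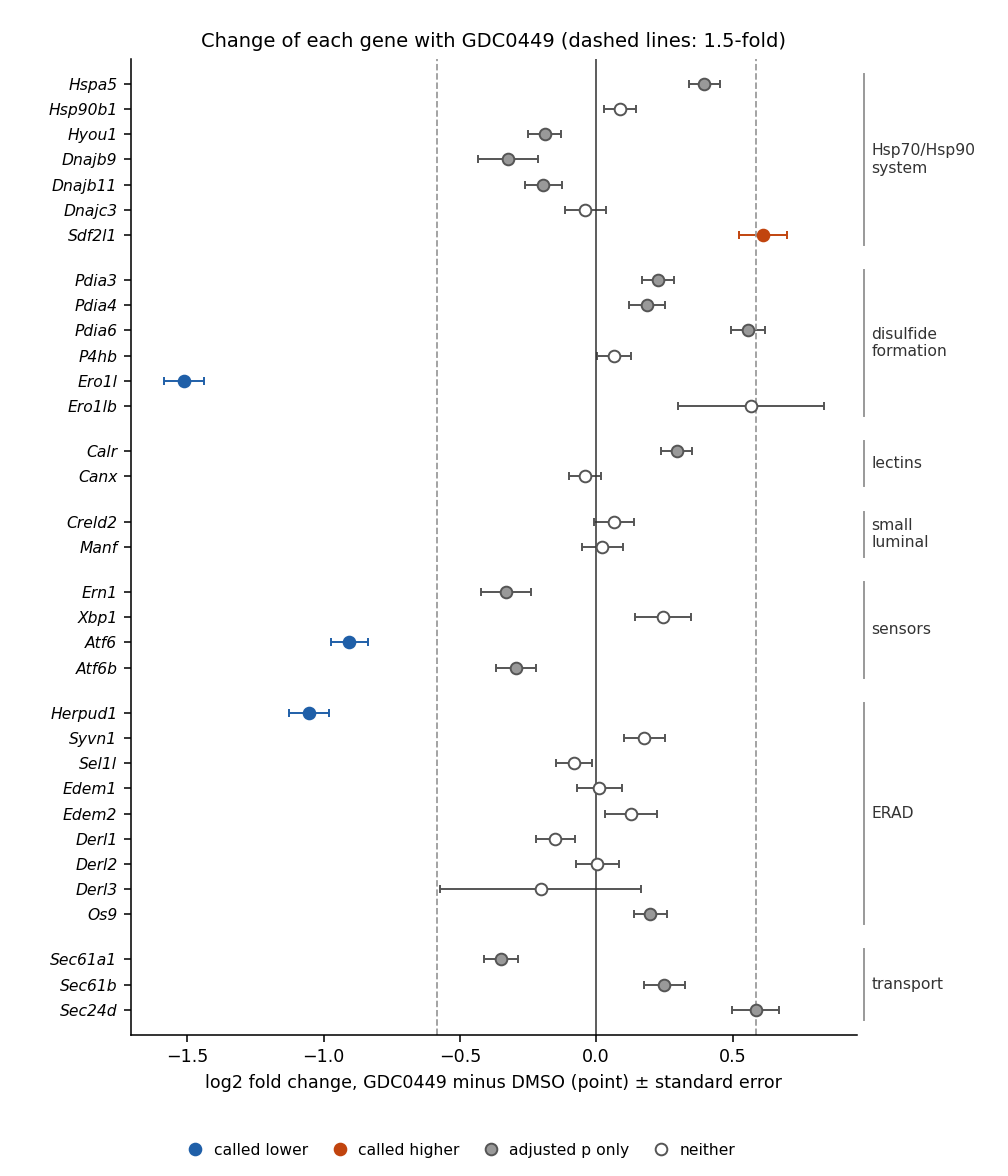
Log2 fold change (GDC0449 minus DMSO, horizontal axis) of each of the 33 genes with its edgeR standard error, grouped by role. Ero1l at -1.51, Herpud1 at -1.05 and Atf6 at -0.91 lie below the lower dashed line of 1.5-fold, Sdf2l1 at 0.61 lies just above the upper one, and Sec24d at 0.58 lies just under it.

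Levels of different genes are given on FPKM, the authors' values per gene length and depth. These rest on a read assignment other than that of the counts, so the order of genes is uncertain. On the FPKM scale the highest in DMSO were the calcium-binding lectin chaperone Calr at 175 FPKM, the ER Hsp90 Hsp90b1 at 160 FPKM and the ER Hsp70 Hspa5 at 104 FPKM. Pdia3 followed at 98.8 FPKM and Canx at 76.3 FPKM. On the mean DMSO CPM per exonic kilobase Calr was also first, at 200.5, but Pdia3 at 132 and Hspa5 at 124 came next, and Hsp90b1 at 89.8 was the sixth. The sensor genes lay below all of these, with Atf6b at 28.7, Atf6 at 11.3, Xbp1 at 8.37 and Ern1 at 3.14 FPKM. Other genes had levels like theirs, such as Ero1l at 28.9, Dnajb9 at 5.11, Edem1 at 4.78 and Sec24d at 3.84 FPKM. At the bottom were Derl3 and Ero1lb, at 0.319 and 0.105 FPKM. They are paralogs of Derl1 and Derl2 and of Ero1l, all far more abundant here. Summed over the 33 genes, the FPKM came to 1338 and 1321 with DMSO and to 1440.4 and 1442 with GDC0449. Their CPM summed to 5087 and 5000.1 with DMSO and to 5310.1 and 5263 with GDC0449. Both GDC0449 sums thus lay above both DMSO sums, and this difference was not tested.

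**Figure D2:**
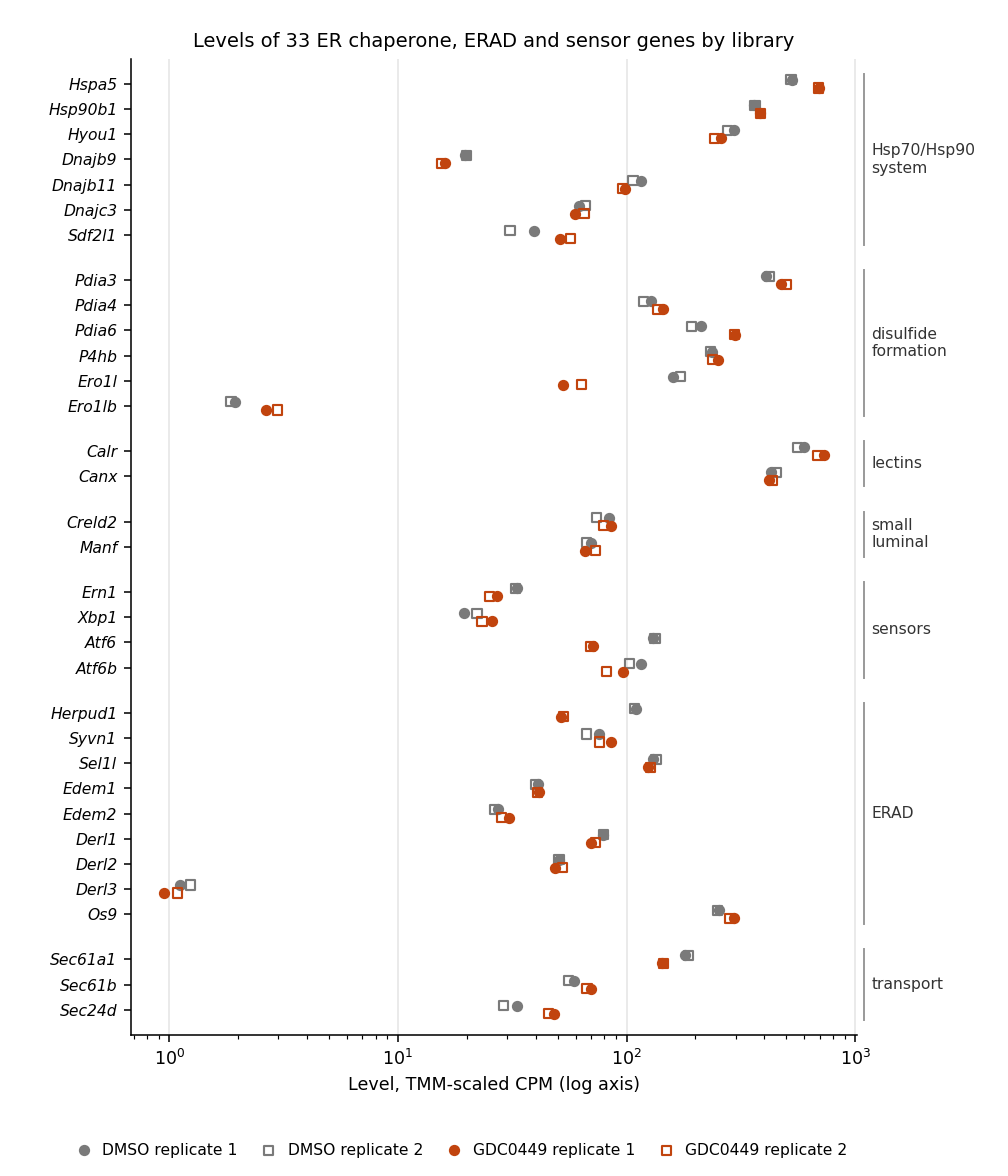
Level of each of the 33 genes in CPM (horizontal log axis) in every library, with DMSO in grey and GDC0449 in red. The groups lie far apart for Ero1l, Atf6 and Herpud1, lie close together for most other genes, and overlap for 6, among them Canx, Manf and Edem1.

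The chaperone machine built on Hspa5 (BiP) differed in both directions. Hspa5 (ENSMUSG00000026864, chromosome 2, 34771970 to 34777547), the ER Hsp70 and the usual reporter of ER stress, was at 529 and 524 CPM in DMSO and at 691 and 694 CPM in GDC0449. Both GDC0449 libraries were above both DMSO libraries, and replicates of a group lay close together. The log2 fold change was 0.40 (standard error 0.06), and the edgeR adjusted p was 1.15e-07, but at 1.32-fold the difference stayed under the fold threshold. Hsp90b1, the ER Hsp90, had a log2 fold change of 0.09 (95% interval -0.03 to 0.21). Of its exonic bases 15.7% also lie in exons of other genes, so its count is less certain. Hyou1, a large Hsp70-type protein that recharges Hspa5 with nucleotide, was at 296 and 275 CPM in DMSO and 259 and 242 CPM in GDC0449, a log2 fold change of -0.19 (adjusted p = 0.0126).

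The J-domain partners, which hand clients to Hspa5, were lower or level. Dnajb9, a cofactor that also keeps Ire1 inactive, was at 19.7 and 19.9 CPM in DMSO and 16.1 and 15.5 CPM in GDC0449 (log2 fold change -0.32, adjusted p = 0.0173). Dnajb11, whose ERSE-II lies just behind its start, was at 115 and 107 CPM against 98.2 and 95.9 CPM (-0.19, adjusted p = 0.0208). Both were under the fold threshold. Dnajc3, which also inhibits eIF2alpha kinases, had overlapping groups and a log2 fold change of -0.04 (95% interval -0.19 to 0.11).

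Sdf2l1 (ENSMUSG00000022769, chromosome 16, 17130138 to 17132383), which encodes an ER luminal partner of Dnajb11, was the gene that rose. It was at 39.3 and 30.9 CPM in DMSO and at 51.1 and 56.7 CPM in GDC0449. The groups did not overlap, with means of 35.1 ± 5.92 and 53.9 ± 4.01 CPM (SD, n = 2 each). Its log2 fold change was 0.61 (standard error 0.09), or 1.53-fold (edgeR adjusted p = 1.31e-07). The call lay at the edge of the fold threshold and was lost without DMSO replicate 2, at a log2 fold change of 0.45 (adjusted p = 0.0727), and without GDC0449 replicate 2, at 0.53. It was also lost with no filter on low counts (adjusted p = 0.0862).

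Among enzymes of disulfide formation the oxidase gene Ero1l stood apart from the isomerases. Ero1l (Ero1a in RefSeq; ENSMUSG00000021831, chromosome 14, 45283087 to 45318771) encodes the oxidase that recharges protein disulfide isomerases. It was at 160 and 171 CPM in DMSO and at 52.5 and 63.6 CPM in GDC0449, so the highest GDC0449 value lay far below the lowest DMSO value. It fell 2.85-fold, at a log2 fold change of -1.51 (standard error 0.07, edgeR adjusted p = 5.97e-24). None of the 4 elements searched matched in its promoter window. Its paralog Ero1lb (Ero1b) was near the detection limit, at 1.93 and 1.86 CPM against 2.66 and 2.99 CPM. Its 95% interval of 0.03 to 1.103 was wide (adjusted p = 0.0924).

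The isomerases that Ero1l serves were level or slightly higher. Pdia6 (ENSMUSG00000020571, chromosome 12, 17266545 to 17284770), an isomerase that also binds Ire1, was at 213 and 192 CPM in DMSO and at 299 and 296 CPM in GDC0449. The GDC0449 libraries were both above the DMSO libraries. At a log2 fold change of 0.56 (standard error 0.06, adjusted p = 1.34e-10), or 1.47-fold, it stayed just under the fold threshold, which it passed with upper-quartile scaling at 0.59 and without DMSO replicate 1 at 0.63. Pdia3, which works with the lectin chaperones, was at 408 and 423 against 471 and 500.1 CPM (log2 fold change 0.23, adjusted p = 0.00182). Pdia4 had a log2 fold change of 0.19 (adjusted p = 0.0235). P4hb, the founding isomerase of the family, had one of 0.07 with a 95% interval of -0.06 to 0.19.

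The lectin chaperones Calr and Canx bind the same sugar tag on new glycoproteins, and their values came out differently. Calr, the soluble lectin, was at 595 and 559.6 CPM in DMSO and at 729 and 688 CPM in GDC0449, a log2 fold change of 0.29 (adjusted p = 5.08e-05) under the fold threshold. Canx, the membrane-bound lectin, was at 430.3 and 452 CPM against 421 and 436 CPM, with overlapping groups and a log2 fold change of -0.04 (95% interval -0.16 to 0.08). Whether these 2 genes differ from each other in response was not tested. The small luminal proteins Creld2 and Manf, which are standard targets of Atf6 and are secreted during ER stress, overlapped between the groups. Creld2 had a log2 fold change of 0.06 (95% interval -0.08 to 0.21) and Manf one of 0.02 (-0.13 to 0.17). In Manf 9.3% of exonic bases are shared with other genes.

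Of the sensor genes Atf6 fell. Atf6 (ENSMUSG00000026663, chromosome 1, 170704674 to 170867771), the membrane-bound transcription factor of that arm, was at 130.3 and 133 CPM in DMSO and at 71.0 and 69.6 CPM in GDC0449. Replicates nearly coincided in each group. It fell 1.87-fold, at a log2 fold change of -0.91 (standard error 0.07, edgeR adjusted p = 2.09e-16). Its relative Atf6b, a weaker activator, was at 116 and 103 CPM against 96.9 and 81.8 CPM, a log2 fold change of -0.29 (adjusted p = 0.0012) under the fold threshold. Ern1, which encodes Ire1, was at 33.3 and 32.7 CPM against 27.2 and 25.3 CPM (-0.33, adjusted p = 0.00337), also under it. Xbp1, the target of Ire1, was at 19.4 and 22.2 CPM against 25.8 and 23.3 CPM. Its log2 fold change was 0.25 (adjusted p = 0.0572). Counts per gene do not separate spliced from unspliced Xbp1, nor cut from uncut Atf6 protein.

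Among ERAD genes Herpud1 changed and the core ligase complex had small differences. Herpud1 (ENSMUSG00000031770, chromosome 8, 94386438 to 94395377) encodes a membrane protein that assembles the degradation complex. It was at 109.9 and 108 CPM in DMSO and at 51.9 and 53.2 CPM in GDC0449. The groups were far apart and the replicates close. It fell 2.08-fold, at a log2 fold change of -1.05 (standard error 0.07, edgeR adjusted p = 3.55e-18). Among the 28 genes with a promoter window it alone matched the Atf4 element, which 4.13% of all genes with a window matched. An ERSE-II matched in the same window. Whether either element bears on the fall was not tested.

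Syvn1, the ubiquitin ligase of the complex, had a log2 fold change of 0.18 (adjusted p = 0.0607), and its adaptor Sel1l had one of -0.08 (95% interval -0.21 to 0.05). Os9, a lectin that recognises misfolded glycoproteins, was at 253 and 251 CPM against 295 and 283 CPM, a log2 fold change of 0.20 (adjusted p = 0.00748) under the fold threshold. The mannose-trimming genes Edem1 and Edem2 had 0.01 (95% interval -0.15 to 0.18) and 0.13 (-0.06 to 0.32). Of the derlins, which take part in moving proteins back to the cytosol, Derl1 had -0.15 (-0.29 to -0.01, adjusted p = 0.0957) and Derl2 had 0.00 (-0.15 to 0.16). Derl3 was near the detection limit, with 20 to 23 reads per library and an interval of -0.94 to 0.53.

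At the entry and exit of the ER the 3 genes went different ways, and none passed the fold threshold. Sec61a1, the pore subunit of the translocon, was at 181 and 186 CPM against 143 and 145 CPM (log2 fold change -0.35, adjusted p = 1.16e-05), and 8.2% of its exonic bases are shared with other genes. Sec61b, a small subunit of the same channel, was at 59.2 and 56.0 CPM against 69.8 and 67.1 CPM (0.25, adjusted p = 0.00671). Sec24d, a cargo receptor of the COPII coat and the gene with the unfolded protein response element core, was at 33.3 and 28.9 CPM in DMSO and 48.1 and 45.5 CPM in GDC0449. Its groups did not overlap, and at a log2 fold change of 0.58 (adjusted p = 2.23e-07) it lay directly under the threshold. On the authors' FPKM it was at 4.01 and 3.67 in DMSO and at 5.24 and 3.46 in GDC0449, so GDC0449 replicate 2 was the lowest of the 4 libraries on that scale. The log2 fold change on log2(FPKM + 1) was 0.13 (limma adjusted p = 0.683), so the difference in counts did not pass the test on FPKM.

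Set by promoter, the 10 genes with an ERSE had log2 fold changes from -0.20 to 0.57 with a median of 0.13, of which 7 were above 0, and none was called. Of these 10 genes Hspa5, Pdia6 and Calr, whose elements are shown above, passed the adjusted p, each higher with GDC0449, a rule that 36.1% of all tested genes passed. The 18 genes with a window and no ERSE ranged from -1.51 to 0.61 with a median of 0.04, and 11 were above 0. Past both thresholds 2 of them, Ero1l and Herpud1, fell and 1, Sdf2l1, rose. At the adjusted p alone 6 of these 18 were higher (Sdf2l1, Pdia3, Pdia4, Os9, Sec61b and Sec24d) and 6 lower. Only the exact ERSE letters were counted, and a missing match is no proof that an element is absent. Among these 18, Dnajb11 and Herpud1 matched the ERSE-II and Sec24d the core of the unfolded protein response element. The difference between these sets was not tested.

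**Figure D3:**
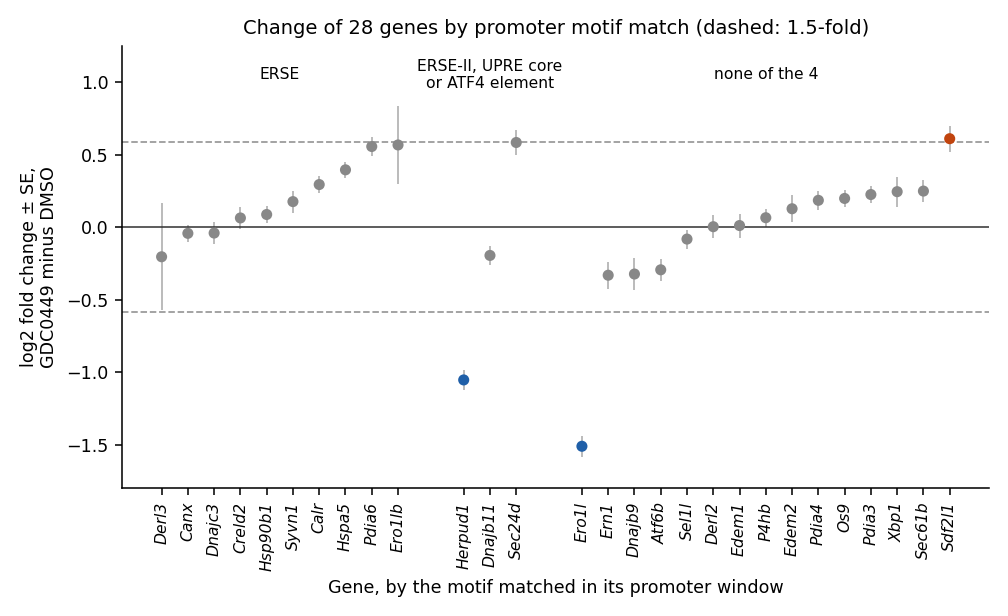
Log2 fold change (GDC0449 minus DMSO, vertical axis, with edgeR standard error) of the 28 genes with a promoter window, grouped by the motif matched. The 10 genes with an ERSE lie between -0.20 and 0.57, while Herpud1 at -1.05 and Ero1l at -1.51 stand in the other groups.

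Other genes of the ER and of stress responses were counted from 7 further lists. These lists were chosen with earlier results of these data known, so their counts are a description. The Atf4 arm had the largest median change among them, at a log2 fold change of -1.58. Of its 18 genes 16 fell and none rose past both thresholds. Over all tested genes 3.85% were called lower and 8.68% higher. Trib3, a pseudokinase induced by Atf4, fell from 210.1 and 195 CPM to 24.0 and 23.5 CPM. Ppp1r15a, which directs dephosphorylation of eIF2alpha, fell from 147 and 139.97 CPM to 22.8 and 22.1 CPM. Chac1 and Sesn2 fell 5.22-fold and 3.61-fold. The exceptions were Eif2ak3, which encodes the kinase Perk, at a log2 fold change of 0.10 (95% interval -0.10 to 0.30), and Ddit4, at 0.35 under the fold threshold; both were named after their values were seen. The values of the 33 genes and of the Atf4 arm come from the same 4 libraries and thus share their controls.

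Calls in the remaining ER lists are to be read beside the 3.85% of all tested genes called lower and the 8.68% called higher. At the adjusted p alone the shares were 18.1% in each direction. Among genes at 20 CPM or more they were 27.6% lower and 17.9% higher. Of 39 tested other folding factors 1 fell and 2 rose, with a median of -0.08, and at the adjusted p alone 12 were lower and 5 higher. Fkbp14, a peptidyl-prolyl isomerase of the ER, rose from 3.66 and 3.48 to 7.59 and 6.78 CPM. Its call was lost without DMSO replicate 1 (log2 fold change 1.04) or DMSO replicate 2 (0.96). It was also lost with edgeR's glmTreat against 1.5-fold (adjusted p = 0.0747). Fkbp7, of the same family, rose from 1.93 and 3.73 to 4.65 and 5.35 CPM. Its call was lost with DESeq2 (adjusted p = 0.0973) and with no filter on low counts (edgeR adjusted p = 0.18), among other settings. It was also lost without DMSO replicate 1 (log2 fold change 0.42) or DMSO replicate 2 (1.36), and with limma on log2(FPKM + 1) (0.54). Tmx3, a membrane-bound disulfide isomerase, fell 1.53-fold. Its call was lost without DMSO replicate 2, at a log2 fold change of -0.51, or GDC0449 replicate 1, at -0.56. Upper-quartile scaling (-0.58) and limma on log2(FPKM + 1) (-0.55) lost it as well, among other settings. Of 30 other ERAD genes 1, the inhibitor Svip, rose, and none fell, with a median of -0.09, and 8 were lower and 2 higher at the adjusted p alone. The log2 fold change of Svip was 0.59, at the edge of the fold threshold. Its call was lost with DESeq2 (0.57), relative log expression scaling (0.58) and no filter on low counts (0.58), among other settings. It was also lost with limma on log2(FPKM + 1) (0.50) and log2(FPKM + 0.1) (0.56). The same held without DMSO replicate 1 (0.57) or GDC0449 replicate 2 (0.56). Another list held proteases, cofactors, regulators and relatives of the Ire1 and Atf6 arms. Of its 13 tested genes 2 fell, with a median of -0.05, and 5 were lower and 2 higher at the adjusted p alone. Tmbim6, an ER membrane protein that restrains Ire1, fell from 875 and 829.6 CPM to 425 and 416 CPM. Wfs1, an ER membrane protein that promotes degradation of Atf6, fell from 55.8 and 51.4 CPM to 31.2 and 28.2 CPM.

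Translocon, signal peptidase and oligosaccharyltransferase subunits beyond the 33 had a median of -0.20. Of these 26 genes 15 were lower and 0 higher at the adjusted p alone, a rule that took 18.1% of all tested genes in each direction and, at 20 CPM or more, 27.6% lower and 17.9% higher. Past the fold threshold as well was Krtcap2, a subunit of the oligosaccharyltransferase, which fell from 116 and 107 CPM to 57.8 and 61.7 CPM. Of 13 other COPII genes none was called with edgeR, and at the adjusted p alone 2 were lower and 0 higher.

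**Figure D4:**
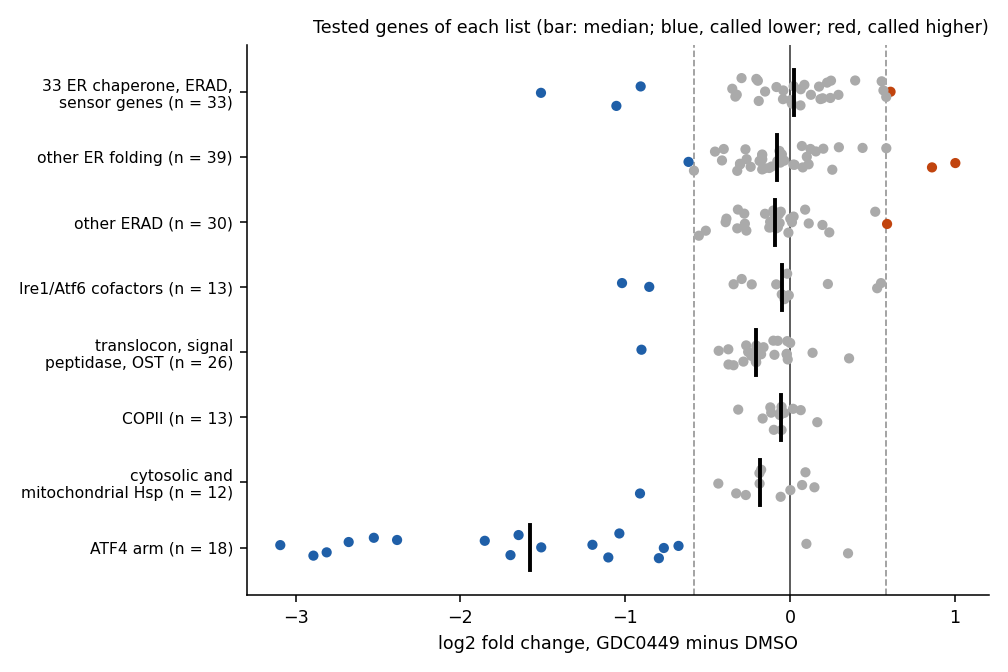
Log2 fold change (GDC0449 minus DMSO, horizontal axis) of every tested gene in each list, with the median as a bar and the 1.5-fold thresholds dashed. The median is 0.02 for the 33 genes, between -0.20 and -0.05 for the other ER and heat shock lists, and -1.58 for the Atf4 arm.

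The 3 falls were the steadiest calls. Over 16 alternative settings Ero1l lay between -1.66 and -1.37 and Herpud1 between -1.07 and -1.01, and both were called in all 16. Atf6 lay between -0.92 and -0.81 and was called in 15, all but the rule that asks for 2-fold. Sdf2l1 was called in 11, and Hspa5 kept a log2 fold change of 0.38 to 0.43.

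**Figure D5:**
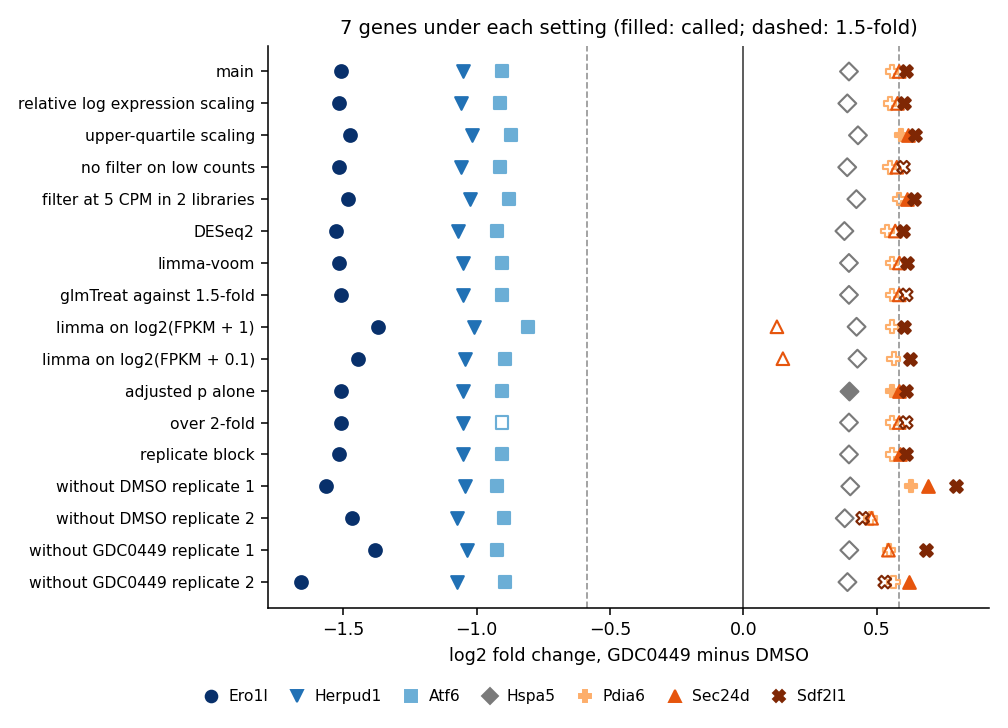
Log2 fold change (horizontal axis) of 7 genes under the main analysis and 16 alternative settings, with filled symbols where the gene was called. Ero1l, Herpud1 and Atf6 stay left of the lower threshold in every setting, while Sdf2l1, Sec24d and Pdia6 cross the upper one from setting to setting.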

How the data were processed

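The authors deposited raw counts per gene and FPKM. Per the submitters' processing notes, the tools were Trim Galore, HISAT2 with the build mm10, HTSeq 0.11.1 for the counts and DESeq2 1.26.0. The sources used here do not name the annotation, the strand setting or the tool behind the FPKM. Of 55573 genes, 546 have 0 counts but at least 1 FPKM in all libraries, so counts and FPKM rest on different read assignments. Another 6 rows name no gene and were left out; they held 27.7% to 29.8% of reads. Symbols and coordinates come from GENCODE M21 (GRCm38), which held 55394 identifiers.

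Counts were tested here with edgeR 4.0.16 (TMM scaling, default expression filter, bias-adjusted quasi-likelihood fit, group as the only term, 4 libraries). Calls needed an adjusted p (Benjamini-Hochberg, all tested genes) under 0.05 and more than a 1.5-fold difference. CPM use TMM-scaled library sizes, standard errors are the log2 fold change over the square root of F, and 95% intervals use a t quantile on them. The median prior of the fit was 49.9 of 51.9 degrees of freedom, so variance was mostly shared across genes. On simulated counts of 15472 genes, 77.6% of genes changed 1.75-fold were recovered, 86.2% at 2-fold and 95.2% at 3-fold, with 4 false calls. The simulation drew its counts from the fitted model and changed 67, 65 and 62 genes at these folds. In the data 1939 genes were called, so recovery and false calls there may differ. The members and lists were chosen with earlier results of these data known. All 33 genes are named; of the other lists, called genes with the smallest p are named, up to 4 each. Alternatives used edgeR, DESeq2 1.42.0 and limma 3.58.1.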

Additional observations from a re-analysis of the deposited data

How the results depend on the processing

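The 3 falls were called in every alternative but the 2-fold rule, which gave 2. With the adjusted p alone 9 members were lower and 9 higher, and over all genes 2793 and 2794. The number of members called higher, 1 in the main analysis, was 3 with upper-quartile scaling, 2 with the filter at 5 CPM in 2 libraries and 2 with the replicate block. It was 0 without a filter on low counts (Sdf2l1 at adjusted p = 0.0862), with glmTreat against 1.5-fold and over 2-fold. Leaving out each library in turn gave 3 members lower each time and 0 to 3 higher. Over all genes it gave 351 to 605 lower and 500 to 1221 higher, fewest without either DMSO library, where the lone DMSO library is assumed to vary like the GDC0449 libraries.

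Over all genes, 596 were called lower and 1343 higher in the main analysis. The filter at 5 CPM gave 366 and 799, glmTreat 306 and 500, limma on log2(FPKM + 1) 337 and 503, and the 2-fold rule 312 and 648. Higher calls numbered 746 with no filter, 780 with DESeq2 and 804 with limma on log2(FPKM + 0.1). The 7 other ER and stress lists had 39, 30, 13, 26, 13, 18 and 12 tested genes. Together they held 24 calls, 76 at the adjusted p alone and 15 over 2-fold. Of the 24 calls 16 lay in the Atf4 arm, the list of 18 genes. Over all tested genes 12.5% were called and 36.1% passed the adjusted p alone. The members' median of 0.02 was 0.056 with upper-quartile scaling and 0.0504 with the filter at 5 CPM, and -0.0031 to 0.0499 with a library left out. The cause of these shifts was not tested.

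The replicate numbers are shared between the groups, but same-numbered libraries did not deviate together (r = 0.035 across genes, which are not independent). With the replicate block 3 members were lower and 2 higher, Sec24d being the addition, with 615 and 1407 over all genes. No named member reversed its call. Scaling alternatives moved the median of all genes by at most 0.03. Depth limits Derl3 and Ero1lb, the members under 3 CPM.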

Other observations

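Chaperones of the cytosol and the mitochondrion were counted as well. Of 12 tested genes of the cytosolic and mitochondrial heat shock list, 1 fell and none rose past both thresholds, with a median log2 fold change of -0.18. Over all tested genes 3.85% were called lower and 8.68% higher. At the adjusted p alone 7 of the 12 were lower and 1 higher, a rule that took 18.1% of all tested genes in each direction. Among genes at 20 CPM or more it took 27.6% lower and 17.9% higher. Hspa9, the mitochondrial Hsp70, fell from 1197.4 and 1197.2 CPM in DMSO to 616 and 658 CPM in GDC0449, at a log2 fold change of -0.91 (standard error 0.06, edgeR adjusted p = 2.01e-19). The mitochondrial chaperonin genes Hspd1 and Hspe1 had log2 fold changes of -0.43 (edgeR adjusted p = 1.52e-08) and -0.33 (3.06e-05), under the fold threshold. Hspa5, the counterpart of Hspa9 in the ER, had a log2 fold change of 0.40. Whether these paralogs differ from each other in response was not tested.

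The ratio of CPM to FPKM, which for values from one read assignment would follow gene length in kilobases, ranged from 0.85 for Sec61b to 18.4 for Ero1lb. The exonic lengths of these genes are 1.27 and 6.65 kb. For Hsp90b1 the ratio was 2.23 at an exonic length of 4.03 kb, and for Hspa5 it was 5.01 at 4.23 kb.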
